A study of Mus musculus with 8 samples.

Results

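The class I olfactory receptor genes of mouse chromosome 7 were taken as the protein-coding genes whose symbol is Olfr plus a number between positions 102000000 and 105500000 of mm10. There were 126 such genes, of 21631 protein-coding genes on the 20 chromosomes measured, and all 126 had a timing value, as did 21078 genes in all. The genes run from Olfr543, which starts at 102476773, to Olfr692, which ends at 105369317, a span of 2.89 Mb. RefSeq synonyms give a MOR family number for 122 of the 126, and families 1 to 42 are the class I families. For 121 genes every family number was in that range, and the exception, Olfr605, carries a class I and a class II number. Of 980 olfactory receptor genes elsewhere, 961 had a family number and 3 had class I numbers alone. The files hold the replication timing of DNA and no expression, so whether the receptors were silent in these cells could not be checked.

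Olfactory receptors are G protein-coupled receptors that bind odorants on the cilia of sensory neurons in the nose. Class I receptors resemble those of fish and lie almost all in a single cluster in the mouse, which surrounds the beta-globin genes, while class II receptors are spread over many clusters. A mature sensory neuron transcribes a single receptor allele, and the other receptor genes are packed in heterochromatin. Silent, gene-family-rich and AT-rich chromatin usually replicates late in S phase, and transcribed, gene-rich chromatin early.

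Timing was measured by Repli-seq, in which cells are pulsed with BrdU, early and late S-phase cells are sorted, and the newly made DNA of each fraction is sequenced. The cells were E14Tg2a, a male mouse embryonic stem cell line of 129/Ola background, in which CTCF, a zinc finger protein that anchors chromatin loops together with cohesin, carries an auxin-inducible degron. The auxin group was exposed for 2 days to 500 µM indole-3-acetic acid, and the control group carried the same degron and had none. Each group had 2 replicates, and the early and the late library of a replicate were joined by the authors into 1 timing profile, so 8 libraries gave 4 profiles. The comparison asks where timing moves once CTCF is depleted. No cells without the degron were given auxin, so auxin itself and the loss of CTCF cannot be told apart, and the amount of CTCF left was not analysed here. The labels do not say whether replicates were separate cultures, so p-values measure the spread between these profiles, which may be technical. A higher score means earlier replication, and differences are in score units, since no source used here gives the log base. Read counts were not in the tables used here, so the depth behind each score is unknown.

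The promoter windows of 3 members are shown to let the reader see the kind of sequence these genes start in: the first member by position, which also had the largest difference toward later, the member with the largest difference toward earlier, and the last member. They are RefSeq sequences of GRCm38.p6, whose coordinates are those of mm10, from 250 bases before to 50 bases after the annotated start. Capitals mark matches, on either strand, to the homeodomain-type cores TAATTA and TAATGA, the EBF-type CCCNNGGG, TATAAA, and a CTCF core motif of 12 letters. The windows lie at chr7:102477853-102478152 (minus strand) for Olfr543, chr7:103051050-103051349 (plus strand) for Olfr583 and chr7:105368078-105368377 (plus strand) for Olfr692.
Olfr543: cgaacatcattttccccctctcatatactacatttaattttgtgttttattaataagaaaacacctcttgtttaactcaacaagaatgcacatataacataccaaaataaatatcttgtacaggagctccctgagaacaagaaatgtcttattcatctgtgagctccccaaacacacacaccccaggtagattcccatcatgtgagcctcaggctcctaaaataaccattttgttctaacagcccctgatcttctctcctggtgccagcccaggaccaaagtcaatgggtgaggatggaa
Olfr583: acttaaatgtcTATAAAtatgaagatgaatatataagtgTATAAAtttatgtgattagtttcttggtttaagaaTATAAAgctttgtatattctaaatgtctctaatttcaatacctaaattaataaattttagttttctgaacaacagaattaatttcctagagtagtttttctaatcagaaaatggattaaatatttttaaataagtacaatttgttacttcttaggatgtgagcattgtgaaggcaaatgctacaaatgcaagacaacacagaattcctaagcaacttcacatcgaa
Olfr692: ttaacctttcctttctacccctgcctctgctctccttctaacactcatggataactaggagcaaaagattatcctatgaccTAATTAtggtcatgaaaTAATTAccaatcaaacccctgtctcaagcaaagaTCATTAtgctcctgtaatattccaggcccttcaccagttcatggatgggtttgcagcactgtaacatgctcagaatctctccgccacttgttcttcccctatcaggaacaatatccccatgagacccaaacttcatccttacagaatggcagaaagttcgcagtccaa

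The window of Olfr543 had no match and a GC content of 40.7%. That of Olfr583 had 3 TATAAA matches and the lowest GC content of all member windows, 25.3%. That of Olfr692 had 2 TAATTA matches and 1 TAATGA match, the last read on the opposite strand (TCATTA as printed), and a GC content of 43.3%. Of the 126 members, 109 had a promoter in the table. In 82 of these the annotated start is an ATG, so the window there lies before a coding start and may not hold the transcription start. Median GC content was 37.3% over member windows (25.3% to 51.7%), 35.0% over 835 other olfactory receptor windows and 52.7% over all 32851 promoters. The median number of CpG dinucleotides was 1 in member windows, with at most 5 and with 0 in 35 of them, against 7 over all promoters.

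TATAAA was found in 43 of 109 member windows (39.4%), against 41.4% of other receptor windows and 13.6% of all promoters. TAATGA was found in 30 (27.5%), against 29.0% and 9.8%. TAATTA was found in 16 (14.7%), against 19.2% and 5.3%. CCCNNGGG was found in 3 (2.8%), against 3.1% and 13.7%, and the CTCF core in 0 of 109 (0.0%), against 0.2% and 3.2%. Member windows thus held each motif in shares close to those of other receptor windows. AT-rich windows hold more AT-rich words by base composition alone, and a missing match says only that these letters are not in the window. No test was run on these shares.

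The members replicated late in both groups. A gene was called early above a score of 0.5, late below -0.5 and middle between. With auxin, 7 members were early, 5 middle and 114 late, against 8 early, 4 middle and 114 late in control cells. The median over members was -2.41 and -2.21 in the auxin profiles, against -2.59 and -2.42 in the control profiles. Over all genes, the median of the group means was 1.85 with auxin and 1.89 in control cells. Olfactory receptors on chromosome 2 (285 genes) had medians of -2.63 with auxin and -2.82 in control cells, close to those of the members (-2.36 and -2.76). The 83 receptors on chromosome 11 were far earlier as a group, with medians of -0.15 with auxin and -0.48 in control cells.

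**Figure D1:**
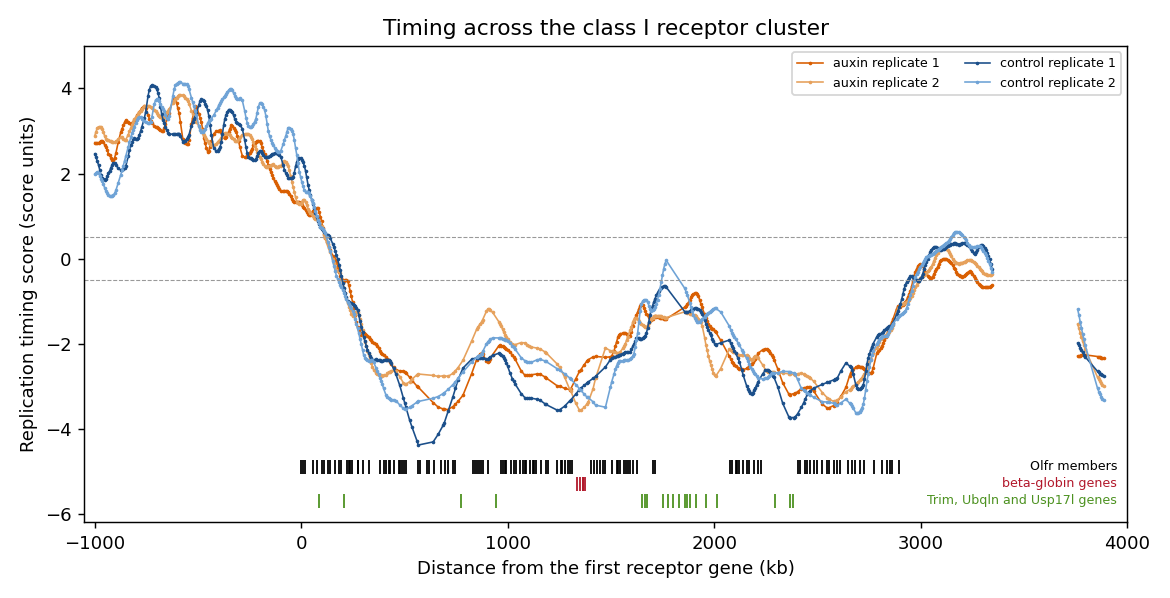
Timing score (y axis, higher is earlier) of each window against the distance in kb from the first receptor gene (x axis), with a line per profile (auxin 1, auxin 2, control 1, control 2), ticks for the receptor genes, the beta-globin genes and the Trim, Ubqln and Usp17l genes, and dashed lines at scores of 0.5 and -0.5. All 4 lines descend from early replication at the proximal end and climb again past the distal end of the cluster. Between these slopes they stay below -0.5, except that control 2 reaches -0.04 at a local high at the Trim genes. Lines run across missing windows, over steps of up to 90 kb within the cluster.

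Timing followed position along the cluster. The 8 members that were early in control cells were the first 8 by position, Olfr543 to Olfr552, and the 4 middle ones, Olfr553 to Olfr556, came next. All 114 others were late. Olfr543 lies 7.00 kb from Rrm1, which encodes the large subunit of ribonucleotide reductase and is the nearest non-receptor gene on that side. In control cells 53.9% of all genes replicated later than Olfr543. All 25 protein-coding genes within 1 Mb on the proximal side were early in both groups. The 19 genes within 1 Mb on the distal side were later, with medians of -0.29 with auxin and 0.21 in control cells.

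The latest members in control cells were Olfr583, Olfr582 and Olfr584, at the bottom of the slope. Between them and the globin genes the score had a local high at Olfr605, with means of -1.78 with auxin and -2.06 in control cells. It dropped again to -3.09 with auxin and -3.08 in control cells at Olfr67, the last member before the globin genes. There are 73 members before the globin genes (103812524 to 103853207) and 53 after them. Beyond them a second high spanned Olfr646 to Olfr649 and the Trim genes, which encode E3 ubiquitin ligases, several of them antiviral. This stretch holds the largest step between neighbouring members, 364 kb from Olfr649 to Olfr651. The score was low again at Olfr677, with -3.46 and -3.36 in auxin cells against -2.85 and -3.40 in control cells. It climbed to -1.12 and -1.17 in auxin cells, against -1.23 and -1.38 in control cells, at the last member, Olfr692.

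**Figure D2:**
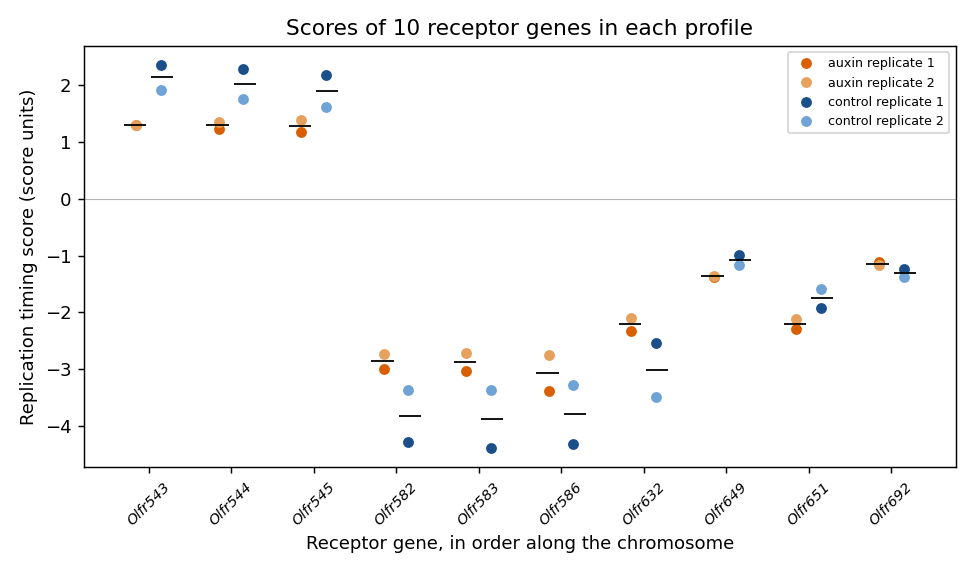
Timing score of named members in the auxin profiles (left of each pair) and the control profiles (right), a point per profile and a line at each group's mean. The auxin points of Olfr543, Olfr544 and Olfr545 lie below both control points, and those of Olfr582, Olfr583 and Olfr632 lie above both; where only 1 auxin point shows, the other lies beneath it.

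The first members of the cluster had lower scores with auxin. Olfr543 scored 1.31 and 1.29 in the auxin profiles, against 2.36 and 1.92 in the control profiles. The groups did not overlap, and the difference was -0.84 (SE 0.23), which did not pass (limma, adjusted p = 0.181 over all genes). Olfr544, whose product is known to respond to azelaic acid, scored 1.24 and 1.36 with auxin against 2.29 and 1.75 in control cells, a difference of -0.72 (limma adjusted p = 0.234). Olfr545 scored 1.18 and 1.39 with auxin against 2.19 and 1.61 in control cells, a difference of -0.62 (limma adjusted p = 0.288). In all 3 genes both auxin profiles were below both control profiles, as they were in 25.9% of all genes, and control replicate 1 was the highest. The 3 genes lie on adjoining windows with similar scores, so they are not separate measurements. Averaged over these 3 genes, the score was 1.29 ± 0.075 with auxin and 2.02 ± 0.37 in control cells (SD, n = 2 each). The difference of -0.73 was -0.47 without control replicate 1, and between -0.47 and -0.98 over all 4 profiles left out in turn.

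The lower scores reached past the edge of the cluster. Rrm1 scored 1.34 and 1.44 with auxin against 2.18 and 2.50 in control cells, a difference of -0.96 (limma adjusted p = 0.172). The 50-kb bin at 102450001 to 102500000, which holds Rrm1 and Olfr543 to Olfr545, averaged 1.31 ± 0.053 with auxin and 2.13 ± 0.19 in control cells (SD, n = 2 each). Its difference of -0.82 had the smallest limma adjusted p of the cluster's bins, 0.0721. From Olfr547 on, the groups came closer. Olfr547 scored 1.12 and 1.01 with auxin against 1.28 and 1.30 in control cells. Olfr552, at 0.40 and 0.40 with auxin against 0.56 and 0.51 in control cells, was the member whose class differed, middle with auxin and early in control cells.

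The largest differences toward earlier lay at the bottom of the same slope. Olfr583 scored -3.03 and -2.71 with auxin, against -4.38 and -3.36 in control cells, a difference of 1.00 (SE 0.35, limma adjusted p = 0.237). Olfr582 scored -3.00 and -2.73 with auxin, against -4.29 and -3.37 in control cells, a difference of 0.97 (limma adjusted p = 0.228). In both genes the auxin profiles lay above both control profiles, as they did in 23.9% of all genes. Control replicate 1, however, was about as far from control replicate 2 as the group means were from each other. Without control replicate 1 the difference of Olfr583 was 0.49. Olfr584, Olfr585 and Olfr586 take their value from the same window, up to 29.5 kb away, and count as 1 measurement. That window scored -3.39 and -2.75 with auxin and -4.31 and -3.28 in control cells, so the groups overlapped.

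After the globin genes, Olfr632 and Olfr633 share a window, which scored -2.32 and -2.10 with auxin, against -2.55 and -3.50 in control cells. The difference was 0.81 (limma adjusted p = 0.281), and here control replicate 2 was the profile that stood low; without it the difference was 0.34. Olfr646, with 3 windows, scored -1.33 and -1.40 with auxin and -1.89 and -1.91 in control cells, a difference of 0.54 (limma adjusted p = 0.25) with close replicates. Past it the sign turned. Olfr649 scored -1.37 and -1.35 with auxin and -0.98 and -1.17 in control cells, a difference of -0.29. Olfr651, beyond the Trim genes, scored -2.30 and -2.13 with auxin and -1.92 and -1.59 in control cells, a difference of -0.46 (limma adjusted p = 0.339). Its neighbours Olfr652 and Olfr653, on windows close to its own, differed by -0.40 and -0.33. In these 4 genes both auxin profiles lay below both control profiles, as in 25.9% of all genes and 27.6% of late genes. In the members that follow, up to Olfr655, the groups overlapped. Without control replicate 2 the differences of Olfr651, Olfr652 and Olfr653 were -0.29, -0.24 and -0.16. Without auxin replicate 1 that of Olfr653 was -0.18. Without control replicate 1 that of Olfr653 was -0.50.

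The members with most windows, Olfr78 and Olfr687, differed between groups by less than their auxin replicates did. Olfr78, which encodes a receptor also made in the carotid body and kidney, scored -1.53 and -1.28 with auxin and -1.20 and -1.59 in control cells over 4 windows, a difference of -0.01. Olfr687 scored -2.48 and -2.24 with auxin and -2.03 and -2.25 in control cells over 8 windows, a difference of -0.22. These 2 genes and Olfr646 are the only members with at least 3 windows. Of the others, 20 had 2 windows, 68 had 1, and 35 overlapped none and took the nearest. In all, 28 members shared all their windows with another, and the 126 values came from 140 distinct windows.

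Over all members the difference ranged from -0.84 to 1.00 with a median of 0.29, and 96 members were higher with auxin and 30 lower. The median was 0.12 without auxin replicate 2 and 0.15 without control replicate 1. Over all genes the median difference was -0.0005 and 49.9% were higher; over late genes it was -0.03 and 47.4%. Both auxin profiles lay above both control profiles in 30 members (23.8%), against 23.9% of all genes and 22.6% of late genes, which is at the background. Both lay below in 12 members (9.52%), against 25.9% of all genes and 27.6% of late genes. No member passed at an adjusted p under 0.05 in limma, and 0% of the 21078 genes did; 14 members had an unadjusted limma p under 0.05, or 11.1%, against 17.1% of all genes. With a trended and robust variance, limma called 1 member, Olfr543 (adjusted p = 0.0343), and 5.31% of all genes. The difference between groups was of the size of that between replicates: its median absolute value over members was 0.32, against 0.28 between the auxin and 0.45 between the control replicates.

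**Figure D3:**
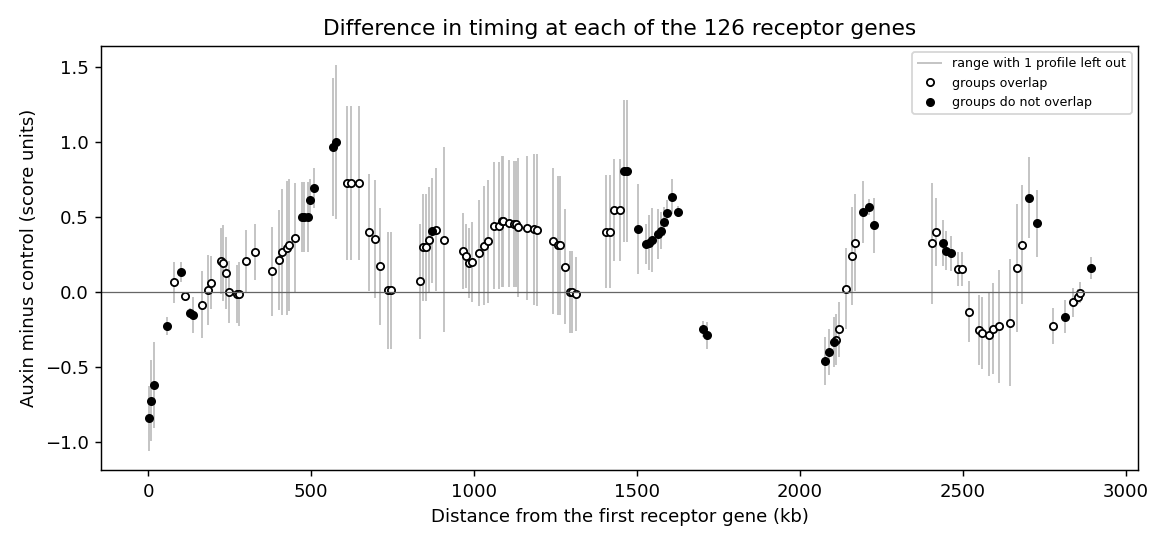
Difference in timing score, auxin minus control (y axis), of each of the 126 members against its distance in kb from the first member (x axis), with filled points where the groups do not overlap and a vertical line for the range of the difference with 1 profile left out. Values run from -0.84 at Olfr543 to 1.00 at Olfr583, and signs come in runs along the chromosome.

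Signs came in runs along the chromosome, and some neighbours share or adjoin windows. The cause of the runs was not tested. The 4 members from Olfr543 to Olfr547 were lower with auxin. The longest run, 54 members from Olfr561 to Olfr68 over 1004 kb, was higher, with a median of 0.35. A run of 16 members from Olfr66 to Olfr646 was higher, with a median of 0.45. The 7 members from Olfr648 to Olfr655, on both sides of the Trim genes, were lower with a median of -0.32. A higher run of 13 (Olfr656 to Olfr671, median 0.33) and a lower run of 7 (Olfr672 to Olfr681, median -0.24) followed. With 1 member per set of shared windows, 111 members had a median of 0.26, and 81 were higher. Among the 91 members with a window over the gene the median was 0.22, and 65 were higher. Over all 978 receptors outside the cluster the median was 0.08, with 552 higher and 426 lower. Among these it was 0.12 on chromosome 2 (179 of 285 higher) and 0.51 on chromosome 11 (70 of 83 higher).

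The range of scores within the cluster was narrower in the auxin profiles. The SD over members was 1.12 and 1.04 with auxin and 1.33 and 1.20 in control cells, with the first members lower and the members at the bottom of the slope higher in score with auxin. Without the first 3 members it was 1.00 and 0.91 with auxin and 1.12 and 1.03 in control cells, so the groups still did not overlap. The interquartile range over members, 0.98 and 1.08 with auxin and 1.01 and 1.35 in control cells, did overlap between groups. Over all genes the SD was 2.13 and 2.14 with auxin and 2.12 and 2.12 in control cells, and over the receptors of chromosome 2 it was 0.92 and 0.87 with auxin and 0.88 and 0.89 in control cells. Over the receptors of chromosome 11 it was 1.54 and 1.44 with auxin and 1.72 and 1.73 in control cells, a larger mean difference (-0.23) than over the members (-0.18). The mean score over the 291 windows between the first and last member was -1.82 and -1.85 with auxin, against -1.95 and -1.92 in control cells, a difference of 0.10. As the members were chosen with results of these data known, no p is given for these summaries.

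The proximal border of the late domain was set at the first window below -0.5, and the distal border at the first window at or above -0.5 from the last member on. Crossings between them were not counted. Auxin replicate 1 scored -0.497 at 102696001, and control replicate 2 rose to -0.04 at the Trim genes. The proximal border lay at 102678001 in both auxin profiles, and at 102678001 and 102660001 in the control profiles. The distal border lay at 105444001 and 105474001 with auxin, and at 105414001 and 105450001 in control cells. The distance between the borders was 2766 and 2796 kb with auxin and 2736 and 2790 kb in control cells, so the ranges of the groups overlapped. The mean shift with auxin was 9.0 kb at the proximal border and 27.0 kb at the distal border, within ranges over the 4 profiles of 18 and 60 kb. The distal shift was 9.0 kb without control replicate 1, 12 kb without auxin replicate 2, 42 kb without auxin replicate 1 and 45 kb without control replicate 2. At a score of -1 it was 9.0 kb, and auxin replicate 1 did not reach a score of 0 on that side within the 1 Mb searched past the last member.

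At finer and coarser scales few stretches stood out. Of 57 bins of 50 kb over the cluster, 49 held at least 3 windows, and 0 passed in limma, against 1.66% of such bins genome-wide; 6 had an unadjusted p under 0.05, against 21.7% genome-wide. Of its 291 windows 0 passed, against 0.999% of all windows, and 38 had an unadjusted p under 0.05, against 20.9% of all windows. With the trended and robust variance, limma called 2 of these bins, against 10.8% genome-wide, and 7 of these windows, against 9.26%. With 25-kb bins, 1 of 59 passed, against 3.48% genome-wide (2% lower with auxin). It spans 104225001 to 104250000, over part of Trim6 and the start of Trim34a, and averaged -1.40 ± 0.022 with auxin and -0.43 ± 0.33 in control cells (SD, n = 2 each; difference -0.97, limma adjusted p = 0.0471). This bin ends at the cluster's largest step between windows, 90 kb from 104244001 to 104334001. A second 25-kb bin passed just outside the cluster, at 102450001 to 102475000 over Rrm1, with a difference of -0.94 (limma adjusted p = 0.0413). None of the authors' deposited regions, 63 that moved later and 22 that moved earlier, overlaps the span of the cluster.

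The 27 other protein-coding genes between the first and last member had a median difference of -0.03, with 12 higher and 15 lower. Of the 12 Trim genes, 9 were lower and 3 higher, with a median of -0.22. Trim34a and Trim5, which share a window, scored -1.42 and -1.39 with auxin and -0.67 and -0.04 in control cells, a difference of -1.05 (limma adjusted p = 0.174). Both were middle in control cells and late with auxin. Trim5 overlaps no window and took this value from 13386 bases away. The beta-globin genes, which encode the beta chains of embryonic and adult hemoglobin, were late: the 5 of 6 measured had means from -2.99 to -3.12 with auxin and from -3.07 to -3.09 in control cells. Their differences, from -0.04 to 0.09, were smaller than the distance between the auxin replicates. Only Hbb-bs and Hbb-y overlap a window, the others took the nearest, and Hbb-bh1 and Hbb-y share theirs. The globin values are thus not separate measurements. Fam160a2, the nearest gene on the distal side, scored -1.10 and -1.09 with auxin and -0.99 and -1.32 in control cells. On the distal flank 16 of 19 genes were lower with auxin, and 13 (68.4%) were lower without overlap, against 25.9% of all genes. On the proximal flank 19 of 25 genes were lower. There 9 (36.0%) were lower and 2 (8.0%) higher without overlap, against 25.9% and 23.9% of all genes. Genes of a flank are neighbours with close or adjoining windows, so they are not separate measurements.

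Genes of the odorant signalling pathway lie elsewhere in the genome, apart from Cnga4, which sits beside the distal end of the cluster. All 12 listed genes were measured, and 6 were higher and 6 lower with auxin. In limma 0 passed, as did 0% of all genes. An unadjusted limma p under 0.05 was found for 2 (16.7%), against 17.1% of all genes, which is at the background. Cnga2, the main subunit of the olfactory cyclic nucleotide-gated channel, scored -2.05 and -2.49 with auxin and -3.23 and -3.16 in control cells, a difference of 0.93 (limma adjusted p = 0.173). Ric8b, a chaperone of the olfactory G protein, scored 3.05 and 2.91 with auxin and 3.69 and 3.40 in control cells, a difference of -0.56 (limma adjusted p = 0.265). Cnga4, the modulatory subunit of that channel, scored -1.02 and -1.03 with auxin and -0.63 and -1.22 in control cells. The list for receptor choice and its chromatin had 14 genes. Among them were the homeodomain factor gene Lhx2, the demethylase gene Kdm1a and the lamin B receptor gene Lbr. Of the 14, 7 were higher and 7 lower, and 0 passed. An unadjusted limma p under 0.05 was found for 0 of them, against 17.1% of all genes.

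Member promoters with more GC belonged to earlier genes. Over the 109 members, the correlation across genes between promoter GC content and the control score was 0.43 (Pearson), and 0.34 over 106 members without the 3 earliest. Across all genes it was 0.42 (n = 16905). The 8 early members had a median GC content of 42.2%, against 37.3% for the 99 late ones. Between GC content and the difference with auxin the correlation was -0.29. Genes share windows and local base composition, so these values are descriptions.

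**Figure D4:**
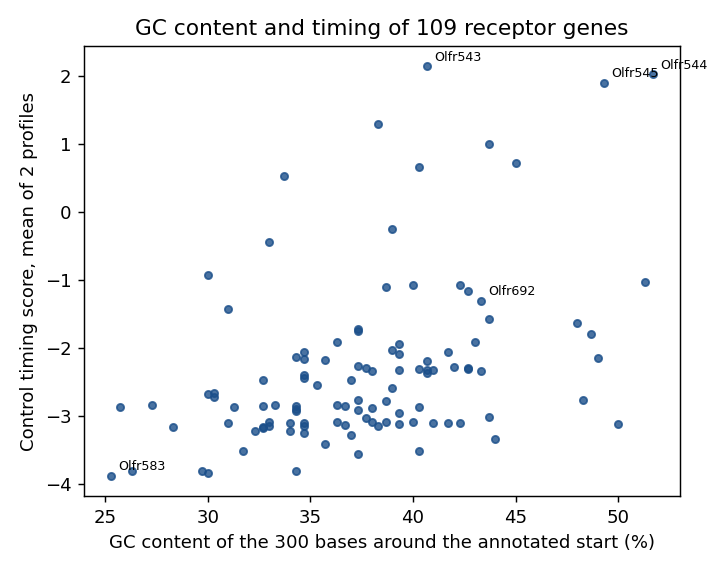
Control timing score (y axis) of the 109 members with a promoter sequence against the GC content of that promoter in percent (x axis), a point per gene. Points of the early members lie at the top, with GC contents of 33.7% or more, and Olfr583 lies at the lowest GC content, 25.3%.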

How the data were processed

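Timing scores are deposited in a table with a column per profile, with 316864 windows on a 6-kb grid. The submitters' processing notes name Bowtie2, SAMtools, bedtools and mm10. No source used here gives their versions and settings, the score's formula or any smoothing. Per the file headers, the authors quantile normalized the scores. All profiles then have 1 common distribution, and a shift of the whole genome is not visible. The q-values and the fold or difference columns in the authors' deposited region lists were not used. Direction follows from the authors' deposited list of regions that moved later, where all 63 scored lower with auxin.

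Each gene's score is the mean of the windows over its body in a RefSeq table of GRCm38.p6, or the nearest window, at most 50 kb away, for 1063 genes. Receptor genes are near-identical in places and may share reads. Groups were compared by limma 3.58.1 in R 4.3.3 (lmFit and eBayes, no trend, treatment only). Fits were on all genes, bins or windows, with Benjamini-Hochberg adjustment over all of them. The gene fit was checked on simulated scores with independent noise, for the mean size of known shifts only. That check set no demand on the calls and did not cover bins or windows. SDs are over 2 profiles. The members, the gene lists and the motifs were chosen with earlier results of these data known. Named genes are the first and last members, the 3 earliest and 3 latest in control cells, the 6 largest differences each way, the globin genes, the nearest genes on each side, and the 2 largest differences inside the cluster and in the signalling list; Olfr547, Olfr552, Olfr605, Olfr67, Olfr646, Olfr649, Olfr677, Olfr78, Olfr687 and Cnga4 were chosen after their values were seen. Alternatives were another variance model, a replicate block, other bin sizes, other gene windows and leaving out each profile. Border and spread measures were chosen after seeing the data.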

Additional observations from a re-analysis of the deposited data

How the results depend on the processing

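With a trended and robust variance, limma called 1119 genes in place of 0, and 1 member; 4626 bins of 50 kb in place of 707, with 2 in the cluster; and 29334 windows in place of 3164, with 7 in the cluster. These 2 bins, both lower with auxin, lay over Rrm1 with Olfr543 to Olfr545 and over Trim6 with Trim34a. Replicates share only a number in the labels. With the replicate block, 10981 of 316864 windows were called, against 5 of 291 in the cluster. Of 42710 bins of 50 kb 2358 were called, against 2 of 49 in the cluster. These bins were the one over Rrm1 with Olfr543 to Olfr545 (-0.82, limma adjusted p = 0.0472) and one over Olfr582, higher with auxin (0.91, limma adjusted p = 0.0358); 2 of the windows lay at Olfr582 and 3 at Trim6 and Trim34a. The replicate differences of the 2 groups correlated by 0.105 over genes and by 0.648 over members. Over members, scores of auxin and control profiles correlated by 0.95 for replicate 1 and 0.96 for replicate 2 (Pearson). Within groups the values were 0.93 between the auxin and 0.91 between the control replicates. Profiles with the same replicate number were thus more alike there than profiles of the same group, and the main fits have no replicate block. With 25-kb bins 2565 were called, 1 in the cluster. With all 50-kb bins, however few their windows, 1 was called genome-wide and 0 in the cluster. The member median difference was -0.0129 over the 3 members with at least 3 windows. The level difference of the cluster was 0.22 as a mean over members and 0.14 as a median over windows, in place of 0.10. The proximal border at a score of 0 shifted by -6.0 kb, in place of 9.0 kb. The cause of these changes was not tested.

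With a profile left out, the fits called 0 to 1 genes, 0 to 127 bins and 2 to 3555 windows, with 0 to 3 in the cluster. Without control replicate 1 or auxin replicate 2 the member median difference was 0.15 and 0.12, the range being 0.12 to 0.30. The proximal border shift was 0.0 to 18.0 kb and the distal one 9.0 to 45 kb. Of 243 alternative values for 25 named genes, 229 kept direction and side of the threshold, 4 passed it (Olfr543, Rrm1, Trim34a and Trim5, with the trended variance) and 10 reversed. With a profile left out, Hbb-bt ranged from -0.33 to 0.25, Hbb-bs from -0.50 to 0.41 and Hbb-bh2 from -0.50 to 0.45 (0.050 over 50 kb centred on it). Hbb-bh1 and Hbb-y ranged from -0.41 to 0.59, and Fam160a2 was at -0.11 without control replicate 2. Few windows per gene and 2 profiles per group limit all of these values.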
